A study of Mus musculus with 14 samples.

Results

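The genes described here are 10 transcription factors and cofactors of the erythroid and megakaryocyte lineages: Gata1, Gata2, Gata3, Klf1, Tal1, Nfe2, Gfi1b, Zfpm1, Lmo2 and Fli1. They were chosen by name, as regulators known from blood development, with earlier results of these data known. They make up 10 of the 55367 gene symbols in each deposited count table. All 10 passed the filter on low counts in both experiments, Gata3 in the second one only through its counts in the treated group. Messenger RNA was sequenced from lineage-negative mouse bone marrow cells, that is, marrow depleted of cells with mature blood lineage markers, grown with SCF, IL6 and IL3. The labels give the genotype of the cells as wild-type. In the first experiment 3 libraries came from cells given a lentivirus with luciferase and 3 from cells given a lentivirus with the mutant SETBP1-D868N. In the second, all cells carried lentiviral SETBP1-D868N and received the solvent DMSO (4 libraries) or 2.5 µM PF-9363 (4 libraries) for 4 days. PF-9363 is an inhibitor of MYST histone acetyltransferases. It was thus compared with its solvent on the mutant background only. SETBP1 is a nuclear protein, and the D868N form is found in myeloid malignancies. The promoter of the lentivirus, the share of transduced cells and the mouse strain and age are not given in the labels. They also do not say whether replicates were separate cultures or animals, so the p-values measure the spread between these libraries, which may be technical.

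GATA factors are zinc finger proteins that bind a short DNA word with GATA at its core. In blood, GATA2 acts in stem and progenitor cells and mast cells, and GATA1 drives red cells, platelets, eosinophils and mast cells and takes over many GATA2 sites as red cells mature. TAL1, a helix-loop-helix protein, joins GATA factors on DNA through LMO2 and LDB1. ZFPM1, also called FOG-1, is a cofactor that binds GATA1 and GATA2. KLF1 switches on globin and other red cell genes, FLI1 platelet genes, and the 2 proteins oppose each other. NFE2 pairs with small MAF proteins in red cells and megakaryocytes, GFI1B represses genes in both, and GATA3 is best known from T and innate lymphoid cells.

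The first experiment held 60147266 to 68730322 counts per library and the second 7083731 to 10359093, so that a count of 0 allowed up to 0.0447 to 0.0505 and 0.272 to 0.467 CPM. CPM here is the count relative to the library total, TMM-scaled (a trimmed mean of log ratios sets the factor). These limits of 3 counts cover counting error only. The mouse gene symbol Setbp1 had 5 to 6 counts in the luciferase libraries and 20 to 24 in the SETBP1-D868N libraries. It had 0 to 2 in all 8 libraries of the second experiment, where it checks no label. The counts do not tell reads of the cells' own gene from reads of the lentivirus. Kit, which progenitors and mast cells both carry, stood at 180.5 ± 2.81 CPM (SD, n = 3) with luciferase. A list of 18 mast cell and basophil genes, Kit among them, summed to 8120 to 8423 CPM there. Genes of mast cells and basophils were thus measured, and Kit does not tell progenitors from mast cells. In bulk RNA, fewer cells of a type and less RNA per cell cannot be told apart.

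Promoter sequence is shown first, since several members are known to regulate one another. RefSeq (GRCm38.p6) gave 9 promoter windows for 7 of the 10 members, each from 250 bases before to 50 after a transcription start. Nfe2, Lmo2 and Fli1 had no entry. The GATA words AGATAA or TGATAA, searched on both strands, stood in 3 of the 9 windows, against 18.61% of all 32851 windows. They were those of Gfi1b, Tal1 and Klf1, shown here 5′ to 3′ on the gene's strand with the GATA word in capitals, which reads TTATCT or TTATCA where it lies on the other strand. The fourth line shows the Gata1 window around the word CCNCACCC (capitals), the CACC-type word that KLF proteins bind, found in 2 of the 9 member windows and in 16.58% of all windows. Other words were searched as well. The E-box words CAGCTG or CAGATG stood in 4 of the 9 member windows and in 30.57% of all windows. The MARE word TGCTGA stood in 4 of the 9 and in 19.48%, and the ETS word CCGGAAG in 0 of the 9 and in 8.858%. A match is a description of letters, not a shown binding site.
Gfi1b, chr2:28622079-28622119, minus strand, 137 to 97 bases before the start: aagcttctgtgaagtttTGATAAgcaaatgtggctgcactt
Tal1, chr4:115056204-115056244, plus strand, 222 to 182 bases before the start: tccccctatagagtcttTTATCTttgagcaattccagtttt
Klf1, chr8:84901885-84901925, plus strand, 97 to 57 bases before the start: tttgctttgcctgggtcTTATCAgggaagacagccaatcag
Gata1, chrX:7967941-7967981, minus strand, 71 to 31 bases before the start: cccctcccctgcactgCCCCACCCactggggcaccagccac
None of these 4 stretches touched an exon annotated in GENCODE M21. The 3 genes with a GATA word did not share one response. Gfi1b was called higher in both comparisons, Tal1 with PF-9363 and not with SETBP1-D868N, and Klf1 with SETBP1-D868N and not with PF-9363.

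The first comparison asks how the members differ in cells that carry SETBP1-D868N. Klf1 rose most, by 0.97 on the log2 scale and from a low level. Gfi1b and Lmo2 rose by about 1.47-fold, Zfpm1 by 1.36-fold and Gata2 by 1.16-fold. Gata1, Gata3, Tal1, Nfe2 and Fli1 did not pass the test. By edgeR's quasi-likelihood test at an adjusted p under 0.05, 5 of the 10 members were called higher and 0 lower, and 0 were lower at an unadjusted p under 0.05 or by DESeq2 or limma-voom. Among the 15794 genes tested, 47.2% were called, 24.5% higher and 22.7% lower. The members' share of calls, 5 of 10, was thus close to the background. The groups did not overlap in 5 of the 10 members and in 56.7% of all genes. The members' median log2 fold change was 0.13, against 0.0043 over all genes, where the median size of a change was 0.19. No member was both called and changed at least 2-fold, as were 1.34% of genes upward and 2.48% downward.

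The second comparison asks how the same genes differ after PF-9363 on the mutant background. Gata2, Tal1 and Gata1 rose several-fold, by 5.28-, 4.94- and 3.35-fold. Gfi1b rose 2.31-fold and Zfpm1 1.94-fold. Gata3 rose from 5 to 72 counts. Lmo2 fell 1.55-fold. Fli1 (1.15-fold) and Nfe2 (1.11-fold) were called lower with overlapping groups, and Klf1, with few counts, did not pass the test. In all, 6 of 10 members were called higher and 3 lower by edgeR at the same threshold, counting Gata3, which could enter the test only by being higher. Of 13456 genes tested, 76.0% were called, 36.6% higher and 39.4% lower, so that a call alone sets a gene little apart here. The groups did not overlap in 7 members and in 70.3% of genes. Called and at least 2-fold higher were 5 of the 10 members and 15.8% of all genes, and 0 members were called and at least 2-fold lower, against 18.1% of all genes. The members' median log2 fold change was 1.08, against −0.038 over all genes, and the median size of a change over all genes was 0.65. Of the 5 members that rose with SETBP1-D868N, Gata2, Gfi1b and Zfpm1 rose with PF-9363 too, Lmo2 fell and Klf1 was not called. The 2 experiments share no libraries, and the difference between their effects was not tested.

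**Figure D1:**
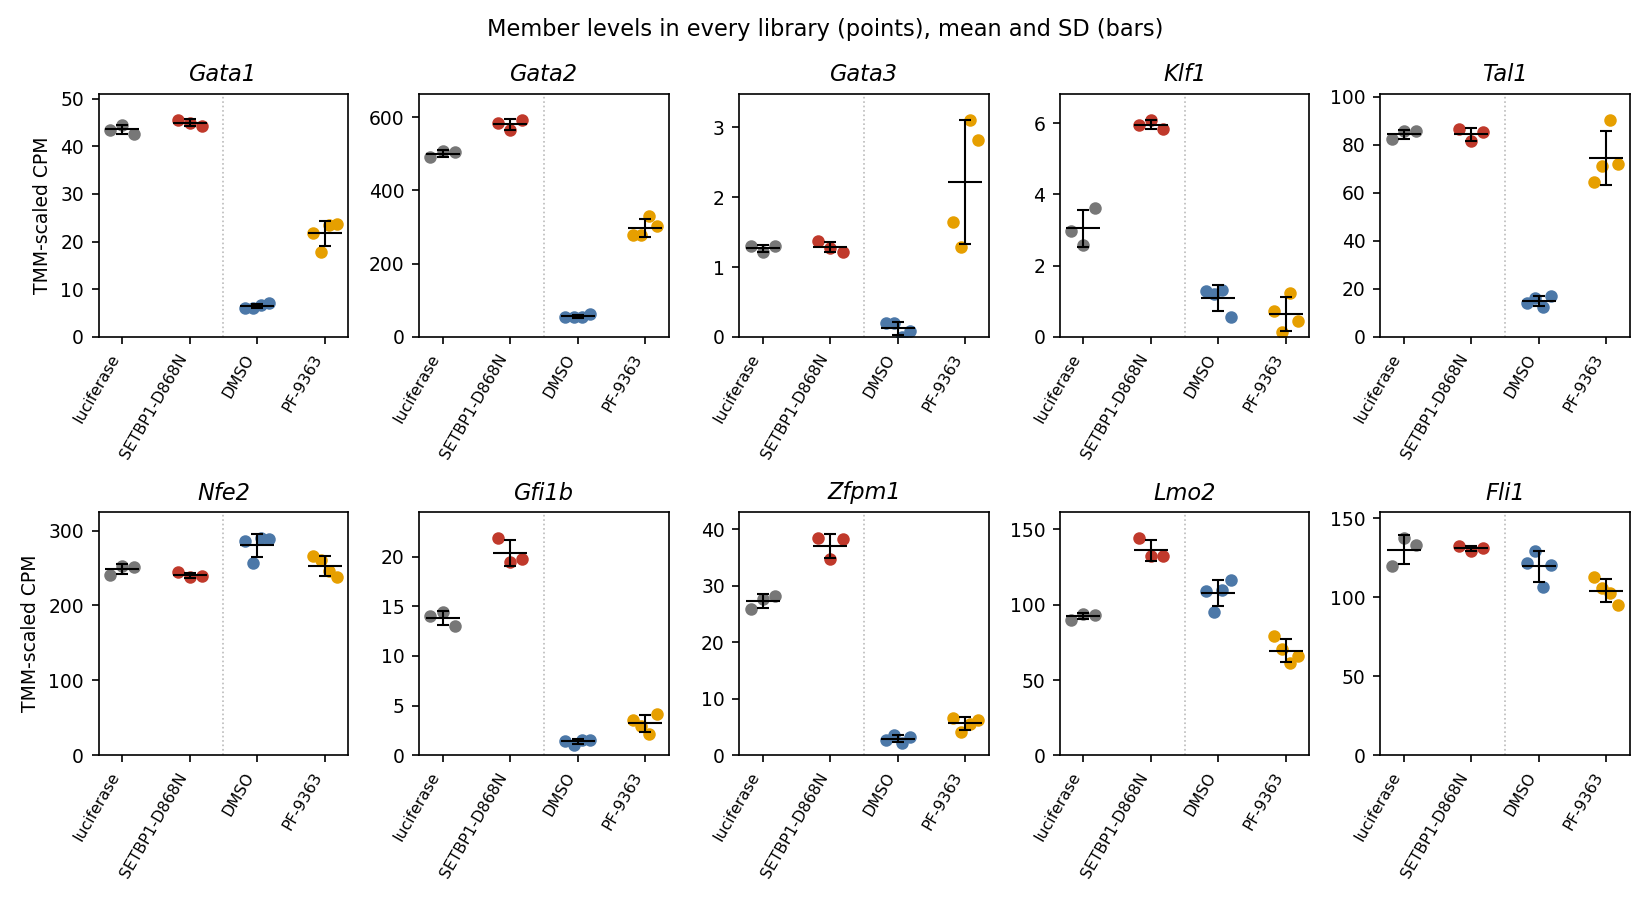
Level of each member in every library, as TMM-scaled CPM on linear axes from 0 (points: libraries; horizontal bar and error bar: mean and SD; n = 3 luciferase and SETBP1-D868N, n = 4 DMSO and PF-9363). The dotted line parts the 2 experiments, which were scaled separately. Gata1, Gata2 and Tal1 with PF-9363 sit above all DMSO libraries, while Klf1 and Lmo2 are highest with SETBP1-D868N in the first experiment.

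Gata2 (chr6:88193891-88207032, plus strand) was the most abundant member per transcript length in the first experiment. The luciferase libraries held 490.4, 506 and 504 CPM and the SETBP1-D868N libraries 584, 564 and 593. Every mutant library was above every control, by a small margin. On the log2 scale the change was 0.21 (SE 0.026, edgeR adjusted p = 3.29e-05). Levels were lower in the second experiment, at 53.5, 54.4, 55.1 and 61.3 CPM with DMSO and 278, 277, 329 and 303 with PF-9363. The groups lay far apart, and the log2 fold change was 2.40 (SE 0.071, edgeR adjusted p = 5.35e-22). Of all genes tested, 8.81% had a larger absolute change. The mean of Gata2 in cells with SETBP1-D868N was 580.3 CPM in the first experiment and 56.1 in the DMSO group of the second. The 2 sets of libraries differ in kit, input, depth and treatment, so these levels were set side by side and not tested.

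Gata1 (chrX:7959260-7978071, minus strand), the later-acting GATA factor, did not pass the test with SETBP1-D868N. The luciferase libraries held 43.4, 44.6 and 42.6 CPM and the mutant libraries 45.6, 45.0 and 44.2, with overlapping ranges. The log2 fold change was 0.045 (95% interval −0.021 to 0.11, edgeR adjusted p = 0.302). With PF-9363 it was higher in 4 of 4 libraries. DMSO libraries held 6.05, 6.09, 6.65 and 7.08 CPM and PF-9363 libraries 21.8, 17.9, 23.5 and 23.6. The change was 1.74 on the log2 scale (SE 0.14, edgeR adjusted p = 3.12e-12).

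Gata3 (chr2:9857078-9890034, minus strand) had the lowest mean RPKM of the members in 3 of the 4 groups, and with PF-9363 the lowest was Klf1. In the first experiment it stood at 1.30, 1.21 and 1.30 CPM with luciferase and 1.37, 1.27 and 1.22 with SETBP1-D868N, and the groups overlapped (log2 fold change 0.021, SE 0.14, edgeR adjusted p = 0.919). Counts with DMSO were 2, 2, 0 and 1, and with PF-9363 they were 16, 10, 20 and 26. No DMSO library came near a PF-9363 library. The ratio of the rates was 18.2, with an exact 95% interval of 7.44 to 57.7 that covers counting error only. The log2 fold change that edgeR fitted, 4.05 (SE 0.57, adjusted p = 3.06e-07), rests on the 5 DMSO counts and depends on the prior count. The gene shares 155 exonic bases with the antisense gene Gm13256 and 77 with 9230102O04Rik, which lies on the same strand. Reads shared with Gm13256 cannot be assigned without knowing how strand was handled. For 9230102O04Rik, strand would not separate them.

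The balance between the GATA factors moved the same way in both comparisons. The log2 ratio of Gata1 to Gata2 counts, with 0.5 added to each, was −3.52 ± 0.036 (SD, n = 3) with luciferase and −3.69 ± 0.050 with SETBP1-D868N, a difference of −0.17 (SE 0.035). It was −3.11 ± 0.048 (SD, n = 4) with DMSO and −3.77 ± 0.13 with PF-9363, a difference of −0.66 (SE 0.070). Ranges did not overlap in either experiment. Library by library, there were 11.3, 11.4 and 11.8 Gata2 reads per Gata1 read with luciferase and 12.8, 12.5 and 13.4 with SETBP1-D868N. The DMSO libraries had 8.85, 8.93, 8.28 and 8.67 and the PF-9363 libraries 12.7, 15.5, 14.0 and 12.8. Both genes were higher with PF-9363, Gata2 by more. Per transcript length, Gata2 made up 83.6% and 85.1% of the summed level of the 3 GATA genes in the first experiment and 79.5% and 85.3% in the second. Gata3 stayed at or below 1.10% of that sum in every library.

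**Figure D2:**
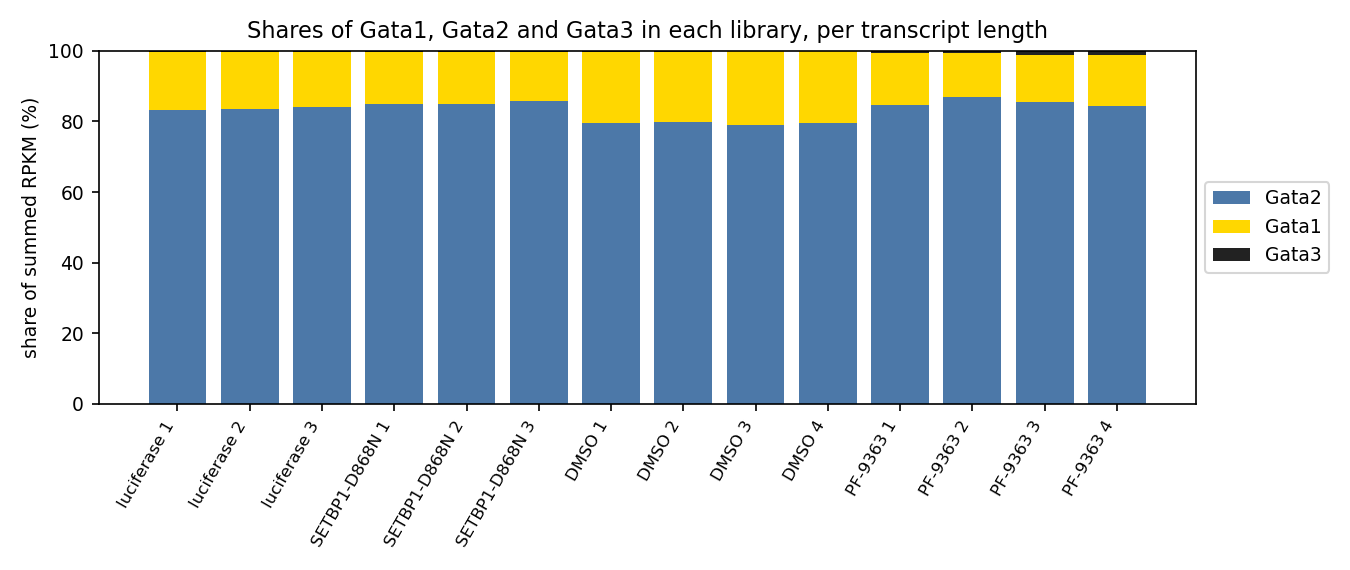
Share of Gata2, Gata1 and Gata3 in their summed RPKM (CPM per kilobase of exon) in each library, in percent. The Gata1 share (yellow) falls from a mean of 16.1% with luciferase to 14.6% with SETBP1-D868N, and from 20.3% with DMSO to 13.8% with PF-9363.

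Tal1 (chr4:115056426-115071755, plus strand) followed the GATA genes in the second experiment and not its bridge protein Lmo2. With luciferase it stood at 82.2, 85.5 and 85.5 CPM and with SETBP1-D868N at 86.4, 81.3 and 85.2. These ranges overlapped, and the change on the log2 scale was −0.0020 (95% interval −0.065 to 0.061, edgeR adjusted p = 0.965). The DMSO libraries held 14.3, 16.1, 12.6 and 17.1 CPM and the PF-9363 libraries 64.3, 71.2, 90.4 and 71.9. The groups did not overlap, and edgeR gave 2.31 on the log2 scale (SE 0.11, adjusted p = 4.66e-16).

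Lmo2 (chr2:103957986-103981878, plus strand) moved in opposite directions in the 2 comparisons. It stood at 90.0, 93.6 and 93.4 CPM with luciferase and at 144, 132 and 132 with SETBP1-D868N. The log2 fold change was 0.56 (SE 0.037, edgeR adjusted p = 3.00e-07), and 14.0% of genes had a larger absolute change. The DMSO libraries held 109, 95.4, 109 and 117 CPM and the PF-9363 libraries 79.3, 70.5, 61.5 and 65.8. All PF-9363 libraries were below all DMSO libraries. On the log2 scale the change was −0.63 (SE 0.079, edgeR adjusted p = 3.58e-08).

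Zfpm1 (chr8:122282141-122337251, plus strand), the GATA cofactor, rose in both comparisons. The luciferase libraries held 25.9, 27.7 and 28.3 CPM and the SETBP1-D868N libraries 38.4, 34.7 and 38.2. This was a change of 0.44 on the log2 scale (SE 0.050, edgeR adjusted p = 1.88e-05). At the lower depth of the second experiment, values were 2.78, 3.59, 2.15 and 3.18 CPM with DMSO and 6.59, 4.12, 5.60 and 6.29 with PF-9363. The lowest treated library was above the highest control in both cases, and the second log2 fold change was 0.96 (SE 0.23, edgeR adjusted p = 5.69e-04).

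Gfi1b (chr2:28609450-28621982, minus strand), the repressor, also rose in both. It stood at 14.0, 14.4 and 13.0 CPM with luciferase and at 21.9, 19.5 and 19.7 with SETBP1-D868N, or 0.56 on the log2 scale (SE 0.059; edgeR adjusted p = 1.10e-05). The DMSO libraries held 15, 10, 17 and 17 counts and the PF-9363 libraries 35, 23, 14 and 38. On the CPM scale, which takes the smaller depth of PF-9363 3 into account, these were 1.49, 0.998, 1.59 and 1.54 against 3.61, 2.96, 2.18 and 4.12. The groups did not overlap, and the log2 fold change was 1.21 (SE 0.31, edgeR adjusted p = 8.76e-04). Its paralog Gfi1, a repressor of the granulocyte lineage, was lower with PF-9363 at 143 ± 6.45 and 29.7 ± 7.88 CPM (SD, n = 4).

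Klf1 (chr8:84901928-84905291, plus strand), the red cell activator, had the largest change of any member with SETBP1-D868N. The luciferase libraries held 199, 168 and 214 counts, or 2.96, 2.58 and 3.61 CPM. The mutant libraries held 390, 399 and 387 counts, or 5.94, 6.10 and 5.83 CPM. No library of one group reached the other, and the log2 fold change was 0.97 (SE 0.11, edgeR adjusted p = 2.43e-05), with 4.44% of genes changed by more. Counts were few in the second experiment, with 13, 12, 14 and 6 for DMSO and 7, 1, 8 and 4 for PF-9363. The ranges overlapped. The log2 fold change was −0.81 (SE 0.50, edgeR adjusted p = 0.141), and the rate ratio of 0.561 had an exact 95% counting interval of 0.314 to 0.970. Over left-out libraries the log2 fold change was −1.24 to −0.49. The gene was called lower only without PF-9363 3 (−1.24, edgeR adjusted p = 0.0494). In that fit only DMSO libraries reached the filter's minimum, so Klf1 could be tested only by being lower.

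Fli1 (chr9:32422204-32542861, minus strand), the opponent of Klf1, differed little within either experiment. It stood at 119.9, 138 and 133 CPM with luciferase and at 132, 129 and 131 with SETBP1-D868N, with edgeR giving 0.0091 on the log2 scale (95% interval −0.080 to 0.098, adjusted p = 0.889). The DMSO libraries held 122, 129, 106 and 121 CPM and the PF-9363 libraries 113, 106, 103 and 95.1. The groups overlapped. The gene was called lower by edgeR at −0.20 on the log2 scale (SE 0.071, adjusted p = 0.0133), a call that was lost without PF-9363 4 (−0.15, adjusted p = 0.0821). The log2 ratio of Klf1 to Fli1, a pair chosen after the values were seen, was higher by 0.97 (SE 0.16) with SETBP1-D868N. With PF-9363 it differed by −0.75 (SE 0.66), and its libraries overlapped.

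Nfe2 (chr15:103248212-103258403, minus strand), the partner of small MAF proteins, also differed little between groups. The luciferase libraries held 241, 253 and 251 CPM and the SETBP1-D868N libraries 244, 238 and 239. The ranges overlapped and edgeR gave −0.046 on the log2 scale (95% interval −0.099 to 0.0077, adjusted p = 0.192). The DMSO libraries held 286, 257, 290.0 and 288 CPM and the PF-9363 libraries 266, 261, 246 and 239, again overlapping. The call of lower at −0.15 (SE 0.061, edgeR adjusted p = 0.0308) was lost under 7 alternatives, among them RLE scaling (−0.12, adjusted p = 0.0713) and DESeq2 (−0.12, adjusted p = 0.0739), and on leaving out DMSO 1, 3 or 4 or PF-9363 3 or 4.

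**Figure D3:**
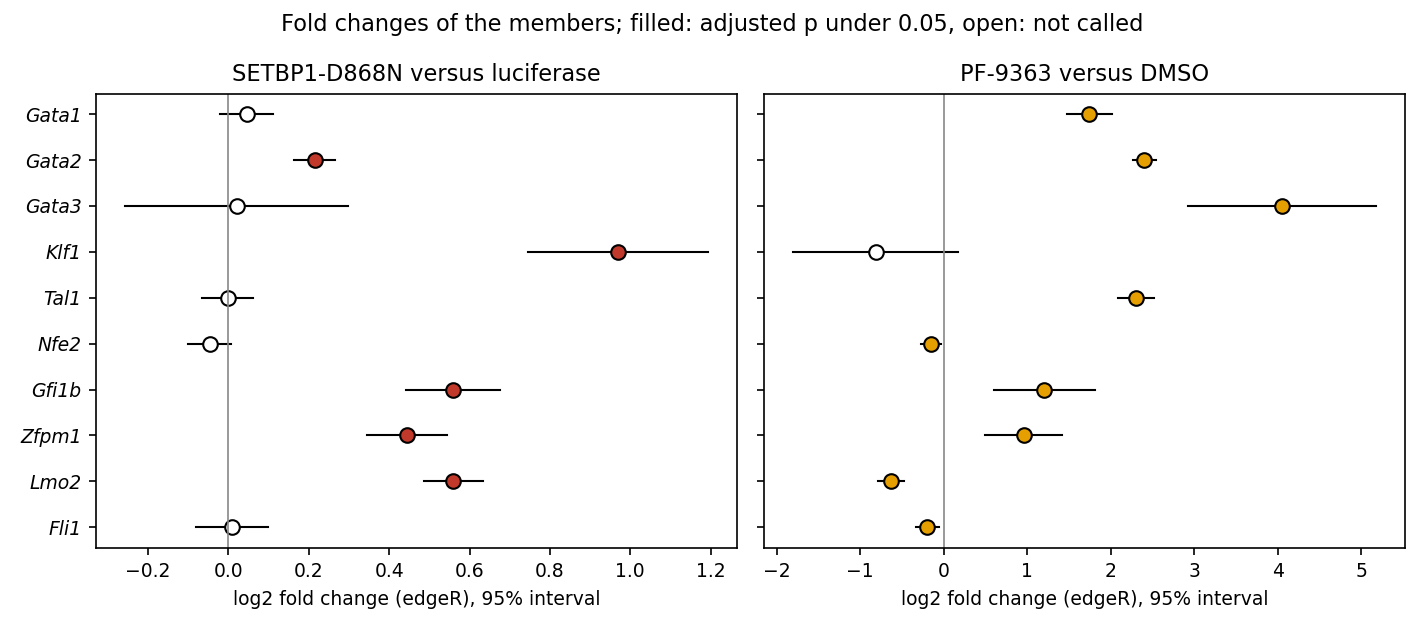
Log2 fold change of each member with its 95% interval in the first comparison (left) and the second (right), on different horizontal scales. Filled points have an edgeR adjusted p under 0.05. Klf1 leads on the left at 0.97 and is open on the right, where Gata3, Gata2, Tal1 and Gata1 lie between 1.74 and 4.05.

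Levels of different members were compared only per exon length, as RPKM. With luciferase the order was Gata2 (92.7 ± 1.59, SD, n = 3), Nfe2 (83.1 ± 2.26), Lmo2 (42.6 ± 0.925), Fli1 (37.4 ± 2.65), Tal1 (19.3 ± 0.427), Gata1 (17.9 ± 0.396), Zfpm1, Gfi1b, Klf1 (1.99 ± 0.339) and Gata3 (0.319 ± 0.0121). The libraries of Zfpm1 and Gfi1b met, so the order of these neighbours is not settled. The order was the same with SETBP1-D868N apart from the exchange of Zfpm1 and Gfi1b, whose ranges met there too, as did those of Tal1 and Gata1. In the DMSO group Nfe2 came first (93.7 ± 5.29 RPKM, n = 4), then Lmo2 (49.7 ± 4.11), Fli1 (34.3 ± 2.75) and Gata2 (10.4 ± 0.658). Tal1 and Gata1 met at 3.42 and 2.65 RPKM, and Zfpm1, Gfi1b and Klf1 met, with means between 0.709 and 0.835 RPKM. With PF-9363 Gata2 moved up to second place at 55.0 ± 4.58 RPKM, behind Nfe2 at 84.6 ± 4.30 and ahead of Lmo2 and Fli1, whose ranges met. Tal1 reached 17.0 ± 2.56 RPKM and Gata1 8.91 ± 1.09, and the ranges of Gfi1b and Zfpm1 and of Gata3 and Klf1 met.

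The other proteins of these complexes were read from a list of 22 partners and cofactors, all of them tested in both experiments. For this list and those that follow, the background is the share over all genes tested. It was 24.5% higher and 22.7% lower with SETBP1-D868N, and 36.6% higher and 39.4% lower with PF-9363. The median log2 fold changes over all genes were 0.0043 and −0.038. With SETBP1-D868N, 12 were higher, 2 lower and 8 not called, with a median log2 fold change of 0.090. The largest changes were those of Bach2 (−0.80), Ssbp2 (0.72), which stabilises LDB1, and Tcf4 (0.27), a helix-loop-helix partner of TAL1. The most abundant partners were Runx1 (−0.0088, not called) and Cbfb (0.093, higher), which work as a pair. With PF-9363, 5 were higher, 13 lower and 4 not called, and the median was −0.31, while the members' own median was 1.08. Some of Tal1's partners were among the lower ones, while Runx1 was called higher (log2 fold change 0.25). Tcf4 fell from 24.8 to 5.82 CPM (log2 fold change −2.09) and Ssbp2 from 23.0 to 4.72 (−2.28). Tcf3, Lyl1 and Ldb1 were named for their role after the values were seen. Tcf3 stood at a log2 fold change of −0.47 and Lyl1, a paralog of Tal1, at −0.35, both called lower. Ldb1 at 0.14 was not called (edgeR adjusted p = 0.0515). Ldb1 was called higher under 7 alternatives, RLE scaling (0.17, edgeR adjusted p = 0.0233) and DESeq2 (0.17, adjusted p = 0.0247) among them, and stood at −0.086 with library size alone.

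Among the partners tied to Nfe2, 4 rose and 1 fell with PF-9363, beside 5 higher and 13 lower in the whole list of 22. Bach1, a repressor that competes with NFE2 for small MAF proteins, rose from 134 to 327 CPM (log2 fold change 1.28), its relative Bach2 from 0.479 to 2.96 (2.62) and Mafg from 158 to 276 (0.81). Mafk, also named for its role, rose from 32.6 to 88.8 CPM (1.44), while Maff fell (−0.80). No DMSO library of Bach2 reached the count filter's minimum, so it entered the test only by being higher. Nfe2 itself stood at 280.1 and 253 CPM. Its relatives Nfe2l1 (1.69) and Nfe2l2 (1.38), the most abundant of the members' paralogs, rose as well. Of 16 paralogs, 11 were tested in the first experiment, with 4 higher, 4 lower and 3 not called, and the largest changes were those of Klf2 (−0.60), Lmo1 (−0.45) and Klf3 (−0.40). In the second, 9 were tested, with 4 higher, 4 lower and 1 not called, led by Gfi1 (−2.26), Nfe2l1 and Lmo1 (1.62). The other GATA genes, Gata4, Gata5 and Gata6, had at most 2 counts in a group of the second experiment. In the first, Gata6 had 52 counts with luciferase and 63 with SETBP1-D868N and was not called (0.24). Gata4 and Gata5 had at most 2 counts in a group there too.

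Erythroid genes were few and low in both experiments. Of 24 such genes, 18 were tested with SETBP1-D868N, with 6 higher, 2 lower and 10 not called, and a median log2 fold change of 0.22. Over all genes, 47.2% were called, 24.5% higher and 22.7% lower, so the list's share of calls was close to the background. The 3 largest changes were upward, and the 2 lower genes were Sptb (−0.40) and Tmcc2 (−0.19). The call of Tmcc2 was lost with library size alone (−0.14) and without luciferase 1 or 2 (−0.19 and −0.15). Car1, carbonic anhydrase 1, stood at 0.972 ± 0.132 and 4.40 ± 0.315 CPM (log2 fold change 2.17), the beta globin Hbb-bt at 2.07 ± 0.165 and 7.84 ± 1.15 (1.92), and the transferrin receptor Tfr2 at 9.17 ± 0.617 and 18.8 ± 1.62 (1.04; SD, n = 3). The summed level of the list was 48.6 to 49.0 CPM with luciferase and 64.3 to 69.4 with SETBP1-D868N. The heme synthesis gene Alas2 and the band 3 gene Slc4a1, both chosen for their role, had too few counts to be tested. Alas2 had 32 counts over the 3 luciferase libraries and 17 over the 3 SETBP1-D868N libraries, with each of the latter lower in CPM, and Slc4a1 had 7 and 5. With PF-9363 only 5 of the 24 were tested. Sptb (1.46), Tmcc2 (1.17) and Hbb-bt (1.15) were higher, and Aqp1 (−1.94) and Tfr2 (−1.24) lower. Aqp1, with 50 and 10 counts, passed the filter only through DMSO and so could be tested only by being lower. Car1 had 14 counts in all DMSO libraries and 0 in all PF-9363 libraries, too few to be tested.

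Megakaryocyte and platelet genes moved in opposite directions in the 2 comparisons. With SETBP1-D868N, 17 of 19 tested genes were lower, 1 higher and 1 not called, with a median log2 fold change of −0.50. Clec1b (−0.97), the von Willebrand receptor gene Gp1ba (−0.82) and the chemokine gene Ppbp (−0.76) changed most, and the abundant genes Thbs1 (−0.73) and Plek (−0.38) were lower too. The 1 higher gene was Itga2b, the integrin CD41 (0.22). With PF-9363, 10 of 13 tested genes were higher, 1 lower and 2 not called, and the median was 0.69. Rab27b rose from 10.7 to 99.0 CPM (3.20), Plek from 115 to 899.7 (2.96), Vwf from 32.0 to 219 (2.78) and Itga2b from 32.3 to 203 (2.65), while Ppbp fell (−0.82). With library size alone as the scale, which lowers the median of all genes by 0.23, 6 of these genes were higher. Thbs1 turned from 0.21 to −0.020 there, and its call was also lost without DMSO 1 or 3 or PF-9363 3 or 4 (0.15 to 0.20). The call of Pf4 (0.45) was lost with library size alone, limma-voom, and without DMSO 1, 2 or 3 or PF-9363 2, 3 or 4. That of Gp1ba (0.69) was lost with library size alone and without DMSO 3. Over left-out libraries, 7 to 12 megakaryocyte and platelet genes were called higher. Several of these genes are also active in mast cells, basophils or macrophages, and the platelet glycoprotein genes Gp9 and Gp6 had too few counts in the second experiment to be tested.

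Among the lineage lists, which differ in size, mast cell and basophil genes had the highest summed CPM, not scaled for exon length. GATA2 is known to control many of them. With SETBP1-D868N, 8 of the 18 were higher and 10 lower, with a median log2 fold change of −0.44 and sums of 8805 to 9084 CPM against 8120 to 8423. Those that fell most were the mast cell receptor gene Mrgprb1 (−2.47) and the tryptase genes Tpsab1 (−2.03) and Tpsb2 (−1.86), and the abundant Cpa3, carboxypeptidase A3, fell too (−0.54). The basophil protease genes Prss34 (1.00) and Mcpt8 (0.48), named after the values were seen, rose, as did Srgn (0.25). With PF-9363, 15 of 17 tested genes were higher, 1 lower and 1 not called. The median was 2.05 and the sum went from 3373 to 3850 up to 7329 to 8806 CPM. Tpsab1 (3.79), the IgE receptor gene Fcer1a (3.11) and the amine transporter gene Slc18a2 (3.08) rose most. Cpa3 rose from 420.0 to 2679.7 CPM, and the widely expressed Srgn fell (−0.87). The gene not called was Mcpt8 (−0.14), which had risen with SETBP1-D868N. Mcpt8 was called lower with library size alone (−0.37, edgeR adjusted p = 6.97e-05), with no filter beyond 1 count (−0.16) and without DMSO 1 (−0.20). Gata2, Gata1 and Tal1 rose in the same 4 libraries. Whether a larger share of mast cells or basophils accounts for those 3 members was not tested.

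**Figure D4:**
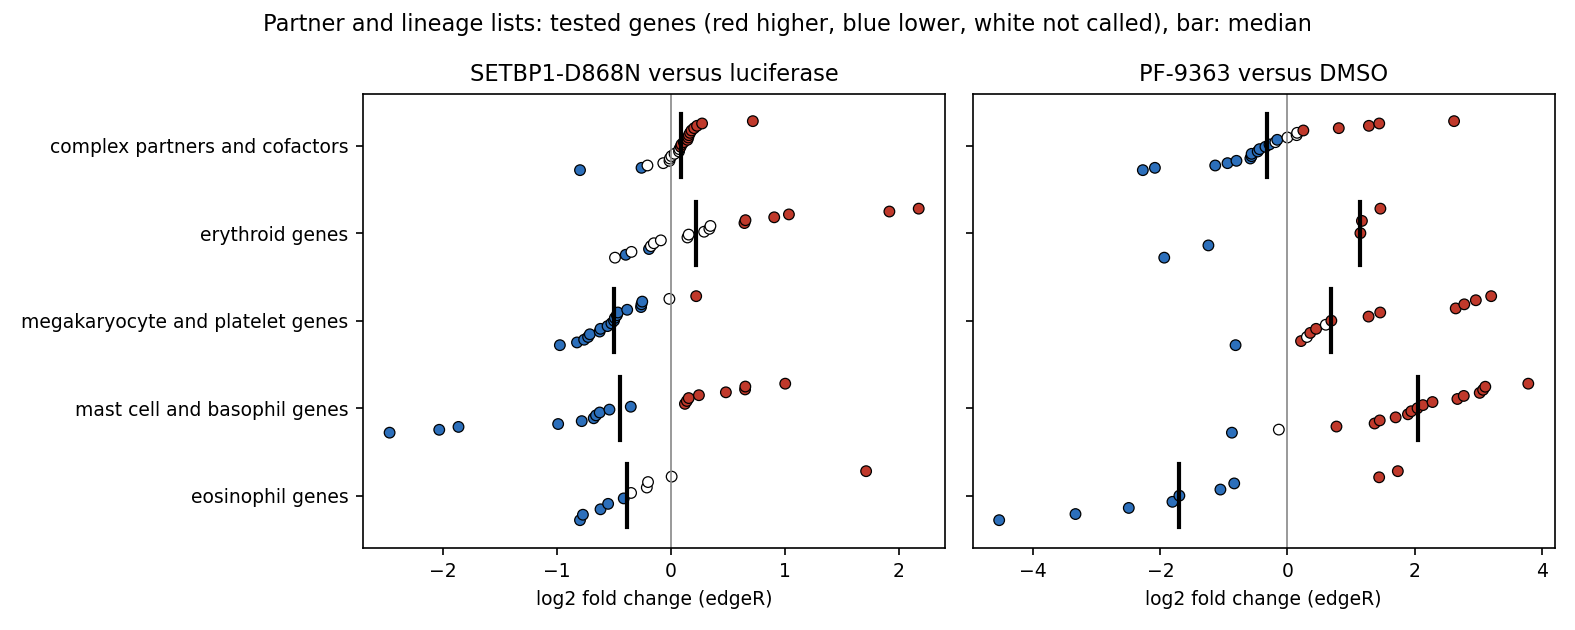
Log2 fold change of every tested gene of the partner list and 4 lineage lists, in the first comparison (left) and the second (right), on different horizontal scales. Each point is a gene (red called higher, blue lower, white not called) and the vertical bar is the list's median, which for megakaryocyte genes goes from −0.50 to 0.69 and for mast cell and basophil genes from −0.44 to 2.05.

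Other lineages that express a member were read the same way. Eosinophils depend on GATA1, and of 10 eosinophil genes 1 was higher and 5 lower with SETBP1-D868N, led by Ccr3 (1.71), Ear1 (−0.80) and Alox15 (−0.77), while the abundant granule genes Epx (0.0071) and Prg2 (−0.35) were not called. Prg2 was called lower under 6 alternatives, among them DESeq2 (−0.36, adjusted p = 9.02e-06) and limma-voom (−0.36, adjusted p = 0.00642), and without SETBP1-D868N 1 or 2 (−0.45 and −0.25). With PF-9363, 2 of 9 were higher, Ccr3 (1.74) and Alox15 (1.44), and 7 lower. Ear1 (−4.54), Ear2 (−3.34) and the peroxidase gene Epx (−2.50) fell most while Gata1 rose, and Prg2 fell too (−0.84). For Gata3, T and innate lymphoid genes are the relevant group. With PF-9363, Il7r (2.83) and Il2ra (2.45) were higher among 5 tested genes and 3 were not called, including the abundant Thy1. Of the 14 genes on this list, 4 (Cd3e, Cd3g, Cd8a and Bcl11b) were at 0 counts in all 8 libraries of the second experiment. Cd3d, Cd2, Cd4, Tcf7 and Icos were not at 0 throughout but had too few counts to be tested. The T cell kinase gene Lck was tested and not called (−0.025). The summed level of the list was 76.9 to 99.8 CPM with DMSO and 161 to 173 with PF-9363. In the first experiment 6 of 10 T and innate lymphoid genes were lower and 1 higher, led by Cd3g (−1.87), Tcf7 (−0.91) and Icos (−0.85), with no call for Gata3. Cd3g had 54 and 15 counts, and its call (edgeR adjusted p = 0.0456) was lost on leaving out any luciferase library or SETBP1-D868N 1 or 2 (adjusted p 0.0605 to 0.148). Endothelial cells express Gata2, Tal1, Lmo2 and Fli1. Of 10 endothelial genes, 3 (Cldn5, Sox17 and Emcn) were at 0 with PF-9363 and DMSO. Cdh5, Kdr, Tek, Tie1 and Esam were not at 0 throughout but had too few counts to be tested. Both tested genes, Pecam1 (−0.43) and Egfl7 (−0.93), were lower. In the first experiment Tie1 (0.36) and Egfl7 (0.29) were higher among 6. The call of Tie1 was lost with DESeq2 and without luciferase 1 or 2 or SETBP1-D868N 1 or 3 (0.29 to 0.36), and that of Egfl7 with a replicate block and without luciferase 2 or 3 or SETBP1-D868N 1 or 3 (0.26 to 0.31).

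Factors of the opposing myeloid branch and progenitor surface genes complete the picture of the cells. Spi1, which encodes PU.1 and antagonises GATA1, stood at 353 and 293 CPM in the first experiment (log2 fold change −0.27) and at 228 and 362 in the second (0.67). Of 10 myeloid factors, 3 were higher and 7 lower with SETBP1-D868N, led by Jun (−0.85), Egr1 (0.53) and Cebpa (0.52). With PF-9363, 5 were higher, 3 lower and 2 not called, led by Klf4 (3.62), Gfi1 (−2.26) and Jun (1.57), and the abundant Cebpb was higher (0.53). Library size alone gave 5 lower. Of 8 stem and progenitor surface genes, 2 were higher and 5 lower with SETBP1-D868N, led by Ly6a (−1.11), Slamf1 (−0.89) and Kit (−0.66), and Cd48, abundant as well, was higher (0.23). With PF-9363, 4 of 7 were higher and 1 lower, led by Procr (3.60), Slamf1 (3.35) and Flt3 (−1.86), with Cd48 higher again (0.79). Procr and Slamf1 had no DMSO library at the filter's minimum and entered the test only by being higher. Kit rose from 69.8 ± 5.89 to 191 ± 18.8 CPM (1.45; SD, n = 4), beside the rise of Gata2, and mast cells as well as progenitors carry it.

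The genes most like Gata1 and Gata2 were found by the root mean square difference of log2 CPM, with 0.5 CPM added, centred on the control libraries. Over the 6 libraries of the first experiment, among 9866 genes, Ube2d2a, Csnk2b and Dda1 were nearest to Gata1 (0.0031 to 0.010) and Eif2b5, Ubxn2b and Vegfb to Gata2 (0.011 to 0.013). Over the 8 libraries of the second, among 9716 genes, Laptm4a (0.047), Atp6v1b2 and Card19 were nearest to Gata1, and Capg (0.055) and Ier5 were among the 3 nearest to Gata2. Among the members themselves Tal1 was nearest to Gata2 in the second experiment, at 0.14. The profile of Gata2 was thus closer to that of Tal1 than to that of Gata1 (0.52).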

How the data were processed

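Raw counts by gene symbol were deposited by the authors, 1 table per experiment. STAR, DESeq2 and the builds GRCm38 and mm10 stand in the submitters' processing notes, and the counting program, annotation and strand handling are not given in the sources used here. RNA input was 500 ng with a Watchmaker kit in the first experiment and 100 ng with libraries from Novogene in the second, per the labels' protocols. Each experiment was therefore fitted alone.

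The rest was computed in R 4.3.3 with edgeR 4.0.16. Low genes were removed by filterByExpr (minimum count 10, minimum total 15), counts were scaled by TMM, and groups were compared with the robust quasi-likelihood test. Benjamini-Hochberg adjustment ran over all genes tested, with a threshold of 0.05. The SE is the log2 fold change over the square root of F, and intervals are 1.96 SE. RPKM divides CPM by the union of GENCODE M21 exons. Promoters are from RefSeq (GRCm38.p6), and coordinates of genes from GENCODE M21 (GRCm38).

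Every member is named. From each list the 3 largest called changes and the 2 most abundant genes are named, and for Gata1 and Gata2 the 3 nearest genes with a mean of at least 5 CPM and no provisional symbol (such as Gm or Rik names), apart from results that are not reported here. Members and lists were chosen with earlier results of these data known, so lists are described by counts and medians without a test. Alternatives were RLE or library-size scaling, other filters, DESeq2 1.42.0, limma-voom (limma 3.58.1), no robust estimation, a replicate block and leaving out each library. The pipeline was tested on simulated data.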

Additional observations from a re-analysis of the deposited data

Results flagged for a closer look

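In 20 groups of 4 libraries (10 members, DMSO and PF-9363), 2 had a library farther from the others than Dixon's 95% limit allows, where chance flags about 1 group in 20. Klf1 stood at 0.544 CPM in DMSO 4, from 6 counts, against 1.20 to 1.31 CPM in the other DMSO libraries. Nfe2 stood at 257 CPM in DMSO 2, against 286 to 290.0 CPM in the others. Groups of 3 were not examined this way.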

How the results depend on the processing

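The number of members called lower with PF-9363 went from 3 to 1 (Lmo2) without PF-9363 replicate 4, and was 1 to 3 over all left-out libraries. Members called higher were 5 to 6 with SETBP1-D868N, where library size alone added Gata1 (0.094, edgeR adjusted p = 0.0400), and 5 to 6 with PF-9363, where a mean count of at least 10 dropped Gata3 from the test. Of 298 member fold changes under alternatives, 279 kept direction and side of the threshold, 8 lost and 2 gained a call, and 9 changed sign. All 9 were uncalled values of the first comparison. With library size alone Tal1 was 0.047 and Nfe2 0.0029. With 1 library left out, Tal1 ranged from −0.024 to 0.018, Gata3 from −0.031 to 0.055 and Fli1 from −0.047 to 0.051, changing sign without luciferase 2, luciferase 3 or SETBP1-D868N 2 (Tal1), luciferase 2 or SETBP1-D868N 1 (Gata3), and luciferase 1 or SETBP1-D868N 1 (Fli1). The cause was not tested. The difference in the Gata1 to Gata2 ratio was −0.19 to −0.14 and −0.70 to −0.61 over left-out libraries.

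Library size alone called 4905 genes higher and 2997 lower with SETBP1-D868N, in place of 3869 and 3579, and 3775 and 6653 with PF-9363, in place of 4921 and 5307. List counts that moved by over 1.5 times were, with SETBP1-D868N, endothelial genes (2 higher to between 0 and 1, 0 lower to 1), erythroid genes lower (2 to 1), paralogs higher (4 to 2, without SETBP1-D868N 2) and partners lower (2 to 4, without SETBP1-D868N 3). With PF-9363 they were megakaryocyte genes higher (10 to 6), mast cell genes lower (1 to 2), myeloid factors lower (3 to 5), and erythroid genes (3 higher to 5 with no filter, 2 lower to 1 at a mean count of at least 10).

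Replicate numbers showed no pairing in expression, which cannot tell whether same-numbered libraries shared a culture or animal. Deviations of same-numbered libraries correlated at −0.178 to −0.0453 (SETBP1-D868N and luciferase) and at −0.0382 to 0.0111 (PF-9363 and DMSO), and no control library correlated best with its own number. A replicate block left the members' calls at 5 higher and 0 lower, and at 6 and 3, and all genes at 3416 and 3224 and at 4885 and 5239. Depth limits Klf1, Gata3, Gfi1b and Zfpm1 in the second experiment, each with under 200 counts in a group.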
